A study of Mus musculus with 16 samples.

Results

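Irs1, Irs2, Grb10, Grb14, Gab1 and Sh2b2 encode docking and adaptor proteins that bind activated insulin and insulin-like growth factor receptors. The 6 genes were chosen by name, with earlier results of these data known, and all 6 were found among the 28971 genes of the count table and among the 15615 that passed the filter on low counts. Whole-kidney RNA was compared between 3 libraries from Hes1 cKO (conditional knockout) mice and 4 from control mice. The Hes1 cKO genotype is Pax8-rtTA;TRE->Cre; Hes1 f/f. In it doxycycline turns on Cre recombinase where the Pax8 promoter is active, which in the kidney is tubule epithelium, and Cre deletes floxed Hes1, a repressor downstream of Notch receptors. Controls are labelled as wild type littermates, and the labels do not name the alleles they carry. Mice of both groups drank doxycycline (1 mg/mL, in 5% sucrose) for 1 week from 3 weeks of age. Libraries are named below as Hes1 cKO 1 to 3 and control 1 to 4, and their values are given in that order. These numbers only name columns, since the column names give the group but match no single titled animal or sex. Among the titled samples, the labels give male and female mice in both groups.

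An activated insulin receptor phosphorylates IRS proteins on tyrosines, and these recruit phosphoinositide 3-kinase, which leads through AKT to the growth kinase mTORC1. Gab1 is a related scaffold used by growth factor receptors, Sh2b2 (also called APS) is an adaptor that binds the insulin receptor directly, and Grb10 and Grb14 bind the receptor and dampen its kinase. In the kidney, insulin signalling acts on sodium transport along the tubule and on glucose production in the proximal tubule.

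The promoters of Irs1 and Irs2 are shown because these 2 genes share a short stretch of sequence that the other members lack. The windows are the 250 bases before the RefSeq start site (build GRCm38.p6, minus strand, written 5′ to 3′ along the gene). That of Irs1 lies at chr1:82291440-82291689 and that of Irs2 at chr8:11008930-11009179, where the non-coding gene 9530052E02Rik runs on the other strand. Capitals mark CACGTG, the palindromic E-box bound by many basic helix-loop-helix factors, and TGTTTTG, the insulin response element known to be bound by FoxO factors.
Irs1: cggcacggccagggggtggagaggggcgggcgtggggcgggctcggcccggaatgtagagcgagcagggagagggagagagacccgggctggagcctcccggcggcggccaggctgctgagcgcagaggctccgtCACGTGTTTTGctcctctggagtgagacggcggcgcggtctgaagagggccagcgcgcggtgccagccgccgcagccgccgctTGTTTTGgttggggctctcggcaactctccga
Irs2: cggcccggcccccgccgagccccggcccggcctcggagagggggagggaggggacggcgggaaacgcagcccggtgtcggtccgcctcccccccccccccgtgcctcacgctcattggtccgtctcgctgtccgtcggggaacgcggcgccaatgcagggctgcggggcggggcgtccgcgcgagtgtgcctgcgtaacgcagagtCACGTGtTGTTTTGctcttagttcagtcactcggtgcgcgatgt

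In Irs1 the E-box begins 115 bases before the start site and overlaps an insulin response element that begins 111 bases before it, and another such element begins 32 bases before it. In Irs2 the E-box begins 44 and the element 37 bases before the start. Both motifs were searched on both strands after these sequences had been seen. Of 27025 genes with such windows, 6.86% held CACGTG and 6.38% held TGTTTTG. Only 7 genes (0.0259%) held both on the same strand with first bases at most 10 apart: Irs1, Irs2, Irs4, Klf11, Pcbp1, Pyroxd1 and 1700019P21Rik. Both motifs anywhere in the window, on either strand, were held by 94 genes (0.348%). Of the 7, 3 were genes of the IRS family. The pair was taken from Irs1 and Irs2, whose spacing lies within the limit, so their presence was fixed in advance. The 30 bases around the pair in these 3 IRS genes are shown to compare the spacing, at chr1:82291531-82291560, chr8:11008950-11008979 and chrX:141725348-141725377 (GRCm38.p6, minus strand, same capitals).
Irs1: ctccgtCACGTGTTTTGctcctctggagtg
Irs2: cagagtCACGTGtTGTTTTGctcttagttc
Irs4: gacggtCACGTGtTGTTTTGcccactgcct
The first bases of the pair lie 7 apart in both Irs2 and Irs4 and 4 apart in Irs1. Irs4 itself was close to silent in these kidneys, at a mean of 0.162 CPM (counts scaled to a common library size) in Hes1 cKO and 0.187 CPM in control, and did not pass the filter.

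Hes1 is known to bind the N-box, CACNAG, and the C-site, CACGCG. These were searched on both strands in the same windows, and 40.1% and 8.65% of genes held them. Neither was matched in the windows of Irs1, Irs2, Grb10 or Gab1, while Irs1 and Irs2 held the E-box given above. Whether Hes1 binds that E-box was not examined. Grb14 held an N-box 183 bases before its start, and Sh2b2 held 2 N-boxes (96 and 21 bases before the start) and a C-site (82 bases before). Of the members other than Irs1 and Irs2, only Gab1 held TGTTTTG, 41 bases before 1 of its 2 listed starts, and none held CACGTG. A match or its absence describes letters in this window and says nothing about binding.

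**Figure D1:**
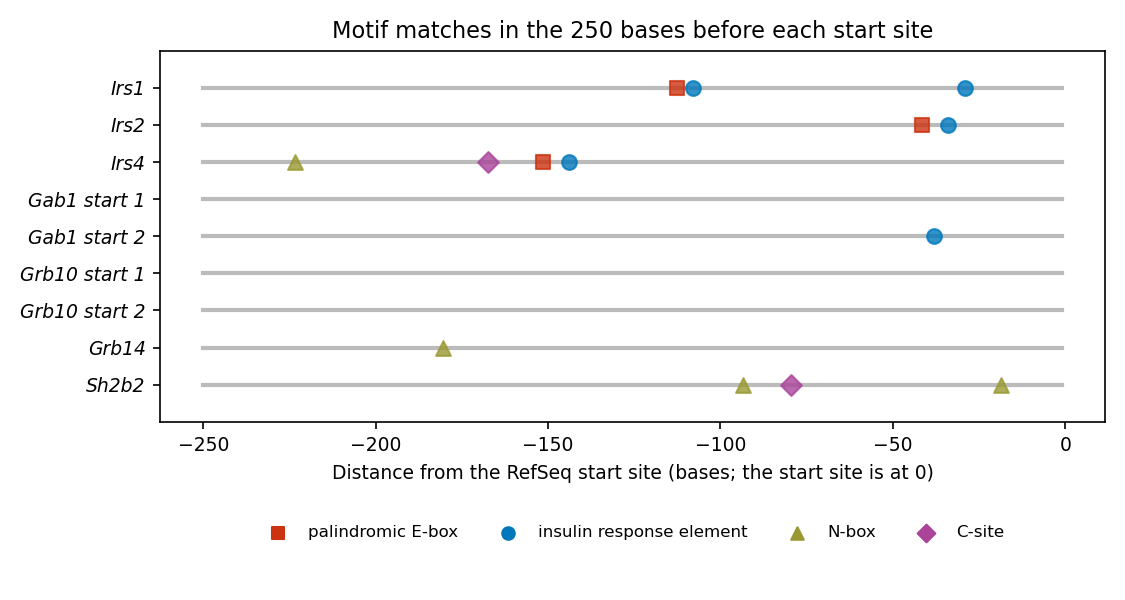
Matches to 4 motifs in the 250 bases before each RefSeq start site of the members and of Irs4; the x axis is distance from the start in bases, each grey line is 1 window, and Gab1 and Grb10 have 2 starts each. An E-box beside an insulin response element is seen in Irs1, Irs2 and Irs4.

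Total counts were 16973931 to 20420422 per library, and TMM-scaled CPM is used for levels. Hes1 was at 17.2 to 19.8 CPM in Hes1 cKO and 42.8 to 67.6 CPM in control (log2 fold change -1.61, SE 0.16, edgeR adjusted p 0.00357). The defining genes of kidney tubules were abundant, with Slc34a1 of the proximal tubule at means of 3894 and 4493 CPM and Umod of the thick ascending limb at 3146 and 2911 CPM in Hes1 cKO and control. Xist, which marks female tissue, was high in 3 libraries, Hes1 cKO 3, control 3 and control 4 (333 to 367 CPM). The remaining 4 had 0.371 CPM or less. The Y-linked gene Ddx3y was at 0.0546 CPM or less in the 3 libraries with high Xist and at 37.9 to 65.2 CPM in the remaining 4. Adrenal genes stood apart between libraries of both groups: the summed level of 8 such genes was 51.9, 2.67 and 1103 CPM across Hes1 cKO 1 to 3, and 816, 212, 3.18 and 4.20 CPM across control 1 to 4. In whole-kidney RNA, more cells of a type and more RNA per cell cannot be told apart. The labels call the controls littermates but do not say which libraries share a litter, so p-values measure the spread between these samples.

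Across the docking proteins and adaptors, Irs1 rose in Hes1 cKO and no other member passed the test. edgeR's quasi-likelihood test called 1 of the 6 members (adjusted p under 0.05), higher, and 0 lower, beside 0.339% of all tested genes called in either direction, 0.32% called higher and 0.0192% called lower. DESeq2 likewise called 1 of 6, beside 0.849% of the genes it tested. By unadjusted p under 0.05, 2 members passed, Irs1 and Grb10, beside 5.95% of all tested genes. The median log2 fold change of the 6 was 0.20, against -0.0064 over all tested genes.

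Irs1 (ENSMUSG00000055980, chr1:82233101-82291416, GRCm38, minus strand, 2 exons) encodes insulin receptor substrate 1. It was at 32.1, 32.9 and 29.1 CPM across Hes1 cKO 1 to 3, against 19.3, 16.2, 18.5 and 19.7 CPM across control 1 to 4. All 3 Hes1 cKO libraries lay above all 4 controls, and the lowest of them was 1.48-fold above the highest control. The log2 fold change was 0.77 (SE 0.10, 95% interval 0.54 to 1.00, edgeR adjusted p 0.0164), a 1.70-fold ratio of means. An exact two-sided permutation test over all 35 assignments of the libraries gave p = 0.0286, the smallest it allows. Among all tested genes Irs1 ranked 31 by p-value. By size of change it was 42 of the 50 genes called higher, whose median log2 fold change was 1.24, so its rise was small among them. The counts behind these values ran from 306 to 666, and the spread within groups (coefficients of variation 6.41% in Hes1 cKO and 8.45% in control) was not far above the 4.12% and 5.46% that counting alone gives.

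Leaving out 1 library ended the call of Irs1 in 3 cases by edgeR: the adjusted p was 0.0984 without Hes1 cKO 1, 0.113 without Hes1 cKO 2 and 0.0517 without control 3. It held in the other 4 cases, and the log2 fold change stayed between 0.71 and 0.82. Among the 3 libraries with high Xist, Irs1 was 1.53-fold higher in the 1 Hes1 cKO library than the mean of the 2 controls, and among the 4 with low Xist it was 1.83-fold higher (2 against 2), both without a test. Exons of Gm9747, annotated on the other strand, cover 30.9% of the exon length of Irs1, and Gm9747 is not among the 28971 genes counted. No source used here says whether counting was by strand, so reads of Gm9747 cannot be told apart from those of Irs1. Other-strand exons of 9530052E02Rik cover 2.56% of Irs2 and those of Gm31105 cover 5.23% of Gab1, and both of these partners were counted.

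Irs2 (ENSMUSG00000038894, chr8:10984681-11008458, minus strand, 2 exons) encodes insulin receptor substrate 2, whose transcript is known to fall when insulin silences FoxO factors. Its level was 66.0, 98.6 and 53.6 CPM across Hes1 cKO 1 to 3, against 45.0, 55.6, 67.3 and 58.9 CPM across control 1 to 4. Hes1 cKO 2 stood above every other library, and the remaining 2 Hes1 cKO libraries lay within the control range. The log2 fold change was 0.36 (SE 0.20, 95% interval -0.09 to 0.81, edgeR adjusted p 0.927), and the exact permutation p was 0.314. Without Hes1 cKO 2 the log2 fold change was 0.077. The interval still includes a change as large as that of Irs1. Irs2 varied far more between animals than counting gives: its coefficient of variation was 31.9% in Hes1 cKO and 16.3% in control, where counting alone gives 2.69% and 3.11%. Its direction also differed with Xist: the 1 Hes1 cKO library with high Xist was at 0.850 of the mean of its 2 controls, and the 2 with low Xist were at 1.64-fold of theirs. That difference was not tested.

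Per length, the balance of the IRS pair differed between libraries. The ratio of Irs2 to Irs1 in RPKM (CPM per kilobase of exon) was 2.97, 4.33 and 2.66 across Hes1 cKO 1 to 3, against 3.36, 4.96, 5.27 and 4.33 across control 1 to 4. Irs2 was thus the more abundant IRS transcript in every library, and the ratios of the groups overlapped. Of the summed RPKM of the 6 members, Irs1 took 8.69% to 9.79% in Hes1 cKO and 5.52% to 7.00% in control, so that these shares did not overlap, while the shares of Irs2 did (25.1% to 37.6% and 23.5% to 31.4%).

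**Figure D2:**
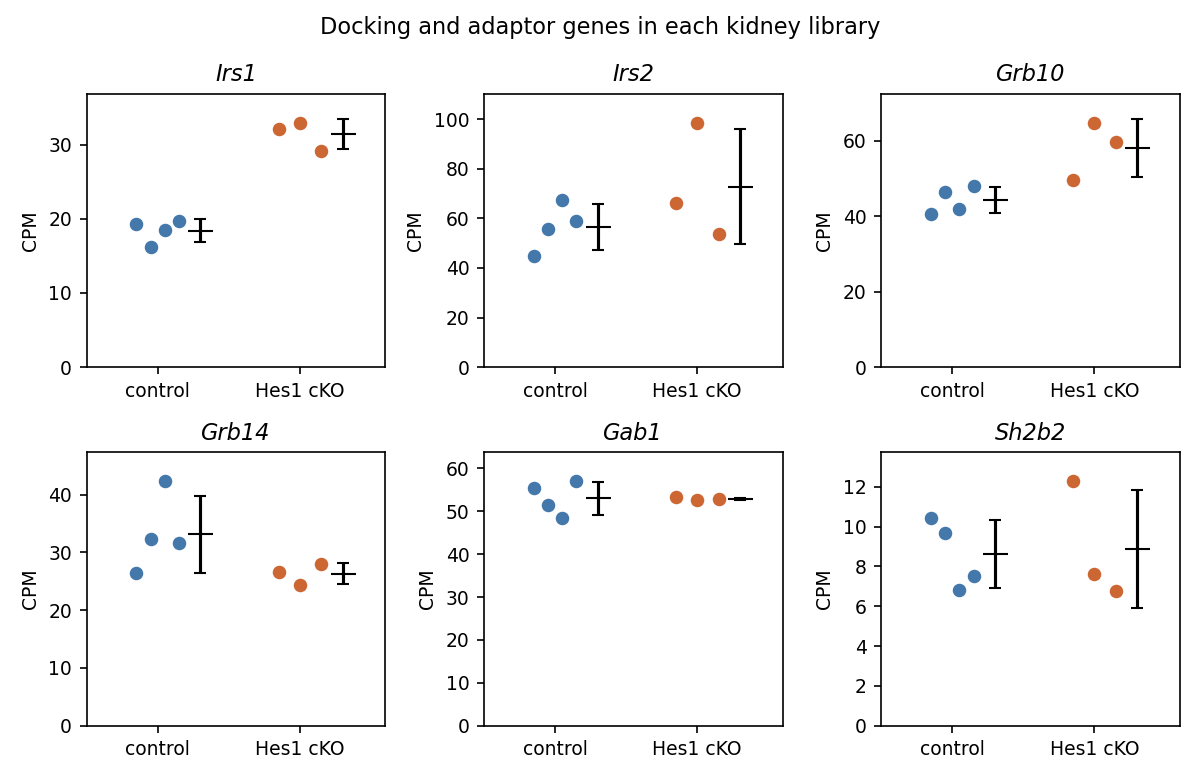
Level of each member in CPM (y axis, from 0) in the 4 control libraries (blue) and the 3 Hes1 cKO libraries (orange), with the group mean and SD in black. The points of Irs1 are clearly apart, those of Grb10 just apart (lowest Hes1 cKO 49.6, highest control 48.0 CPM), and those of the other 4 genes overlap.

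The inhibitory adaptors Grb10 and Grb14 differed in sign, and neither was called. Grb10 (ENSMUSG00000020176, chr11:11930508-12038683, minus strand), an imprinted gene and a known substrate of mTORC1 as a protein, was at 49.6, 64.8 and 59.6 CPM across Hes1 cKO 1 to 3. Control 1 to 4 held 40.7, 46.4, 41.9 and 48.0 CPM. The groups did not overlap, but the gap was narrow: the lowest Hes1 cKO library was 1.03-fold above the highest control. The log2 fold change was 0.39 (SE 0.11, 95% interval 0.15 to 0.63) with an unadjusted p of 0.0052 and an adjusted p of 0.497 by edgeR's quasi-likelihood test. The exact permutation p was 0.0286, the smallest possible. Of all tested genes, 7.01% had groups that did not overlap and 3.71% had all Hes1 cKO libraries above all controls, and 2 of the 6 members, Irs1 and Grb10, were of this kind. The Grb10 ratio was 1.33-fold in the high-Xist and 1.31-fold in the low-Xist libraries.

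Grb14 (ENSMUSG00000026888, chr2:64912476-65024987, minus strand) is the paralog of Grb10. It was at 26.7, 24.4 and 28.0 CPM across Hes1 cKO 1 to 3, against 26.4, 32.2, 42.3 and 31.6 CPM across control 1 to 4. Control 3 was the highest, and control 1 lay inside the Hes1 cKO range. Its log2 fold change of -0.33 (SE 0.15, 95% interval -0.67 to 0.0081) did not pass (edgeR adjusted p 0.844, exact permutation p 0.114). Without control 3 it was -0.19.

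Gab1 and Sh2b2 showed no difference that the data could resolve. Gab1 (ENSMUSG00000031714, chr8:80764438-80880519, minus strand) was at 53.2, 52.6 and 52.9 CPM across Hes1 cKO 1 to 3, against 55.4, 51.6, 48.4 and 57.0 CPM across control 1 to 4. All Hes1 cKO values fell inside the control range, and their coefficient of variation of 0.616% was below the 3.18% that counting gives. On the log2 scale the difference was -0.0053 (SE 0.081; adjusted p 0.996 by edgeR), and its 95% interval of -0.19 to 0.18 does not include the size of the Irs1 change. This is the narrowest interval of the 6 members.

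Sh2b2 (ENSMUSG00000005057, chr5:136218147-136246556, minus strand) was the least abundant member. Its level was 12.3, 7.62 and 6.76 CPM across Hes1 cKO 1 to 3, against 10.4, 9.69, 6.81 and 7.53 CPM across control 1 to 4. The 3 libraries with high Xist held the 3 lowest values, 6.76 to 7.53 CPM, in both groups alike, and the 4 with low Xist ran from 7.62 to 12.3 CPM. Between the groups the log2 fold change was 0.045 (SE 0.23, 95% interval -0.48 to 0.57, edgeR adjusted p 0.996), and with the Xist level as a covariate it was -0.045. Whether sex plays a part in the Sh2b2 level was not tested.

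**Figure D3:**
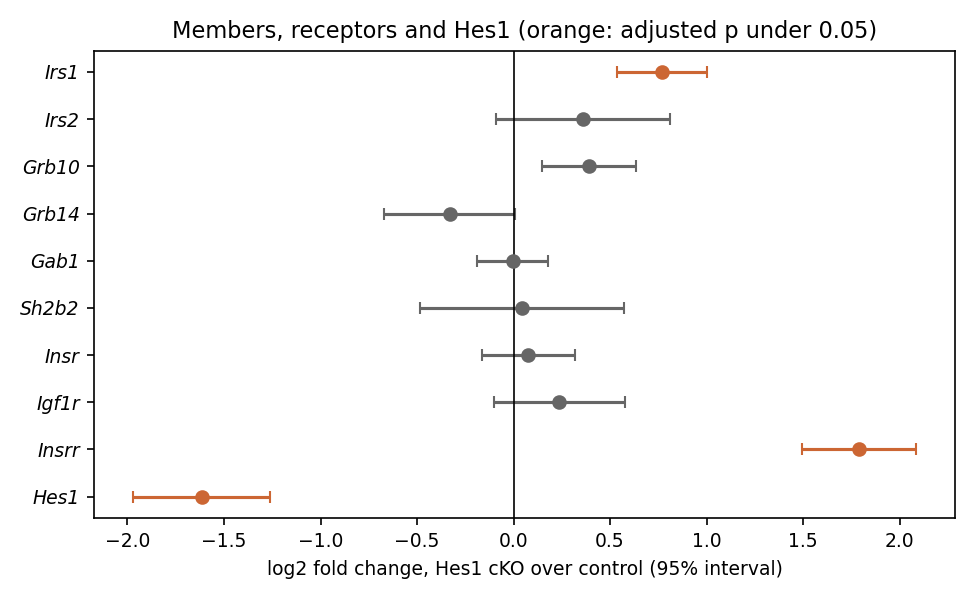
Log2 fold change of Hes1 cKO over control (x axis) with its 95% interval for the 6 members, 3 receptors and Hes1; orange points have an edgeR adjusted p under 0.05. Irs1 and Insrr lie above 0 and Hes1 below, while the interval of Grb10 excludes 0 without passing the adjusted test.

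Per length, the 6 transcripts were of low to middling abundance. In control, Gab1 was highest at 10.4 ± 0.758 RPKM (SD, n = 4), then Irs2 at 8.97 ± 1.46, Grb10 at 4.87 ± 0.383, Grb14 at 4.61 ± 0.926, Irs1 at 2.01 ± 0.170 and Sh2b2 at 1.59 ± 0.319 RPKM. The ranges of the neighbours Gab1 and Irs2, of Grb10 and Grb14 and of Irs1 and Sh2b2 overlapped, so only the order of these 3 pairs stood beyond the spread of the libraries. Gab1 was above 69.9% and Sh2b2 above 29.2% of all tested genes in mean control RPKM. In Hes1 cKO, Irs1 reached 3.43 ± 0.220 RPKM (SD, n = 3) and overlapped with Grb14 at 3.67 ± 0.255 RPKM, while it no longer overlapped with Sh2b2 at 1.64 ± 0.549 RPKM. This order depends on the length used. With the longest transcript in place of all exons, Grb14 rose from 4.61 to 11.8 RPKM in control and became the highest of the 6, Grb10 went to 8.74 and Sh2b2 to 3.03 RPKM, and Irs1 and Irs2 stayed as they were. The longest Grb14 transcript has only 2797 bases in 2 exons, against 7185 bases over the exons of its 8 transcripts. All Grb14 reads were thus divided by a short length there.

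**Figure D4:**
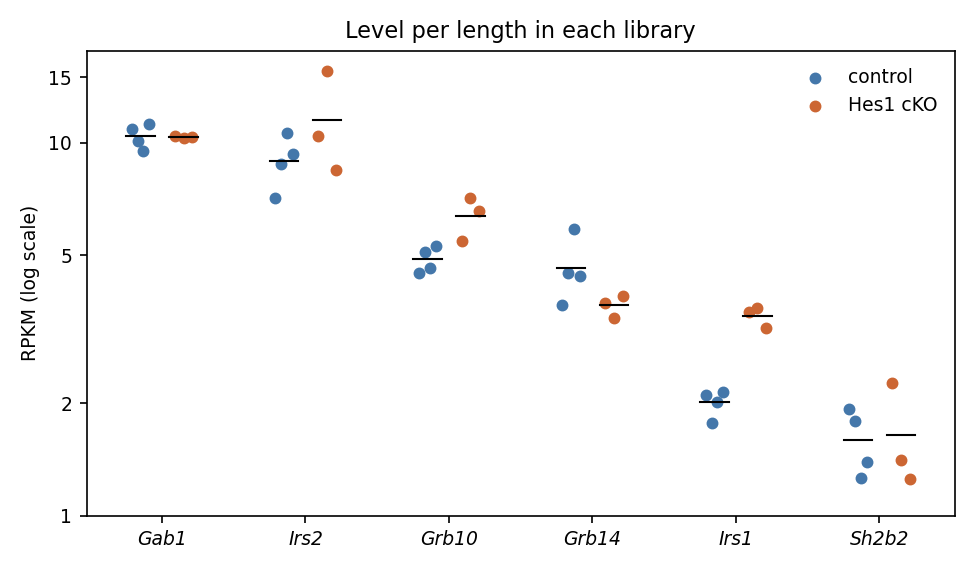
RPKM on a log scale for each member in each library, control in blue and Hes1 cKO in orange, with black lines at the group means; genes are ordered by their control mean. In Hes1 cKO, Irs1 (3.18 to 3.60 RPKM) reaches the range of Grb14 (3.39 to 3.90 RPKM).

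Genes of insulin and insulin-like growth factor receptors and of their relative Insrr were examined next. Insrr, the insulin receptor-related receptor known to sense alkali, was called, at 151, 160 and 165 CPM in Hes1 cKO against 36.3 to 54.4 CPM in control (log2 fold change 1.79, SE 0.13, edgeR adjusted p 6.34e-04). Insr, the insulin receptor, averaged 132 ± 12.8 CPM in the 3 Hes1 cKO libraries and 125 ± 13.1 CPM in the 4 controls (SD), and its 95% interval of -0.17 to 0.32 on the log2 scale includes 0. Igf1r was at 275 ± 49.3 and 233 ± 37.7 CPM (log2 fold change 0.24, edgeR adjusted p 0.938). Of the 4 receptor genes, counting Igf2r, 1 rose and none fell by the test. Insrr is also known as a gene of intercalated cells, the acid and base transporting cells of the collecting duct.

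Markers of other cell types moved with the groups beside Irs1. Of 12 intercalated cell markers 8 were called higher, where 0.32% of all tested genes were called higher and 0.0192% lower. The summed level of the 12 was 1385 to 1502 CPM in Hes1 cKO and 535 to 711 CPM in control. None of the 8 called genes was at 0 in any library. Aqp6 (log2 fold change 0.68), Dmrt2 (0.51) and Slc4a1 (0.41) were higher without a call, and Rhbg was lower (-0.47). Foxi1, Hmx2, Atp6v1g3 and Slc4a9 were called in all 14 alternatives, Slc26a4 in 13, Atp6v0d2 in 12, Kit in 11 and Atp6v1b1 in 8. Calls were lost without Hes1 cKO 2 for Slc26a4, without Hes1 cKO 1 or 2 for Atp6v0d2, without any 1 of the 3 Hes1 cKO libraries for Kit, and without any 1 library except control 1 for Atp6v1b1, with an edgeR adjusted p of at most 0.209. Of 8 tested principal cell markers 1, Hsd11b2, was called lower (in 12 of 14 alternatives, not without Hes1 cKO 1 or 2), 5 had an unadjusted p under 0.05, all lower, and Aqp2 was called in 2 alternatives, DESeq2 and no low-count filter. Gata3 of this list went the other way, with a log2 fold change of 0.19. The summed level of the principal cell markers was 789 to 1244 CPM in Hes1 cKO and 1268 to 1920 CPM in control. In the lists of thick ascending limb, proximal tubule, podocyte, distal convoluted tubule, endothelial, stromal, immune, adipocyte and adrenal genes, edgeR called 0, with 5 genes at an unadjusted p under 0.05. The part of cell composition in the rise of Irs1 was not tested.

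The other docking and adaptor proteins did not change by the test. Of 30 such genes 26 were tested, 0 were called and 0 had an unadjusted p under 0.05 by edgeR, and DESeq2 and limma-voom also called 0. All 26 lay within 0.5 of 0 on the log2 scale, from -0.21 to 0.40, with a median of 0.07. Sh2b1, a relative of Sh2b2 and the gene of the list with the smallest p, was at 109 to 117 CPM in Hes1 cKO and 91.9 to 106 CPM in control (log2 fold change 0.17, SE 0.082, edgeR adjusted p 0.882). Its groups did not overlap, as for 7.01% of all tested genes. Frs2, a docking protein of fibroblast growth factor receptors, had a log2 fold change of 0.18, and the adaptor gene Crkl one of 0.16. Crk was the most abundant of the list, at 40.6 and 38.5 RPKM in Hes1 cKO and control. Grb7, the remaining relative of Grb10 and Grb14, was named after its value was seen, at 101 CPM in Hes1 cKO and 114 CPM in control.

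Downstream of the IRS proteins, 19 genes were examined: those for phosphoinositide 3-kinase, AKT and the phosphatases that oppose them, and Pdpk1, Mtor, Rictor and Mapkap1. Of these, 0 were called by edgeR, DESeq2 or limma-voom. The gene with an unadjusted p under 0.05 was Inppl1, which encodes a lipid phosphatase that removes the product of phosphoinositide 3-kinase. It was at 155, 152 and 149 CPM in Hes1 cKO and 125 to 141 CPM in control, with a log2 fold change of 0.20 (SE 0.076, adjusted p 0.737 by edgeR). The groups lay apart, as for 7.01% of all tested genes. Akt1, the most abundant of the list per length, had a log2 fold change of 0.16, and Inpp5d, a phosphatase of blood cells, one of 0.46 (SE 0.24). The median of the 19 was 0.065.

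Among 17 genes whose products restrain IRS proteins, again 0 were called by the 3 tools. Socs3, which targets IRS proteins for degradation, had the largest change, with a log2 fold change of 1.06 (SE 0.33, unadjusted p 0.0101, adjusted p 0.607, edgeR). It was at 12.1, 6.82 and 3.94 CPM across Hes1 cKO 1 to 3, against 3.10 to 4.18 CPM in control, so that Hes1 cKO 3 lay within the control range. Ptprf, a receptor phosphatase, and Cul7, part of a ubiquitin ligase for Irs1, had log2 fold changes of 0.21 and 0.17. Ywhaz, the most abundant of the list per length, had one of 0.0074.

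FoxO factors and transcripts they are known to drive gave 0 calls of 16 by the 3 tools, 8 with a positive and 8 with a negative change, and a median log2 fold change of -0.0094. Txnip, an inhibitor of glucose uptake, had the smallest p. It was at 138, 154 and 138 CPM across Hes1 cKO 1 to 3, against 157 to 234 CPM in control, a log2 fold change of -0.38 (SE 0.13, unadjusted p 0.0197, adjusted p 0.699, edgeR). The groups did not overlap, as for 7.01% of all tested genes, and the gap was narrow, from 154 to 157 CPM. Foxo1 had a log2 fold change of 0.17 and Pck1, the enzyme of glucose production and the most abundant of the list, one of 0.29 (edgeR adjusted p 0.927 for both).

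**Figure D5:**
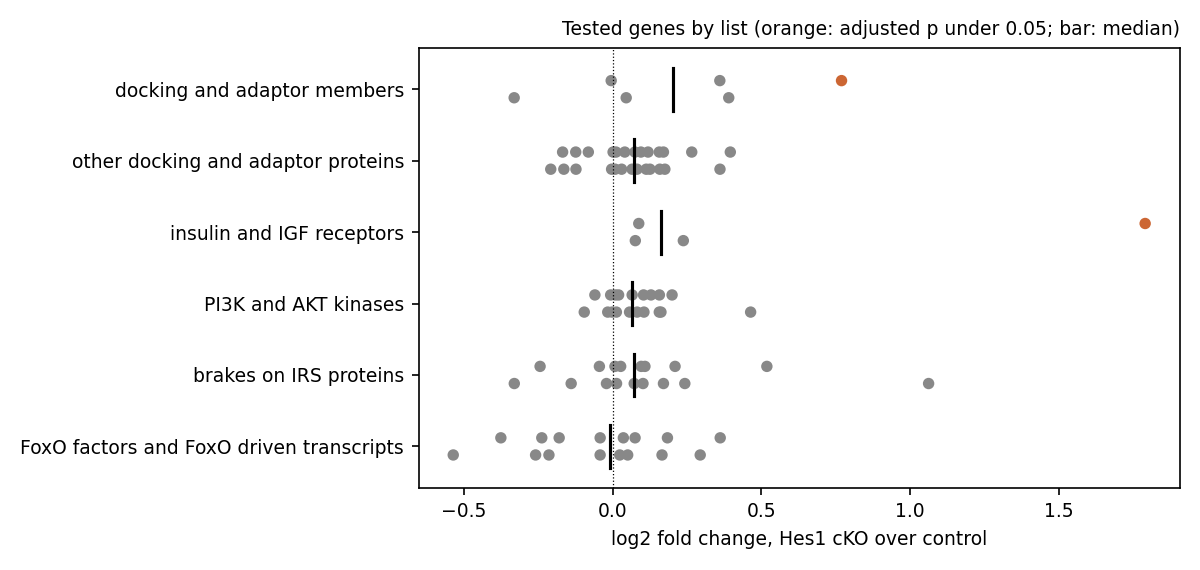
Log2 fold change (x axis) of each tested gene in the 6 members and in 5 lists of the insulin receptor pathway, with a black bar at each median; orange points have an edgeR adjusted p under 0.05. The 2 orange points are Irs1 and Insrr, and most other genes lie within 0.5 of 0.

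Genes whose profile over the 7 libraries was most like that of Irs1 were sought by the smallest root mean square difference of log2(CPM + 1), each profile centred on its mean, among 14143 genes with a mean of at least 1 CPM. They were 4930563D23Rik (0.067), Krt80 (0.084), Itgb4 (0.105), Lmcd1 (0.107) and Tmem132a (0.113). The first was near the floor, at 1.90 to 2.23 CPM in Hes1 cKO and 0.688 to 0.983 CPM in control. At such levels the added 1 shrinks differences: its edgeR log2 fold change was 1.28, so its likeness to Irs1 depends on this scale. Krt80 encodes an epithelial keratin and Itgb4 the beta 4 integrin of hemidesmosomes. Krt80 was at 32.1, 30.6 and 28.9 CPM across Hes1 cKO 1 to 3, against 17.2, 16.4, 19.1 and 21.3 CPM across control 1 to 4. Itgb4 was at 36.8, 38.7 and 31.9 CPM in Hes1 cKO and 17.9 to 20.9 CPM in control. Like Irs1, both were lowest in Hes1 cKO 3 within their group. The rule used all 7 libraries and so the difference between the groups, and no test is given for these 5 genes.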

How the data were processed

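The authors deposited 2 tables of raw read counts per gene, as whole numbers without normalization. FastQC, STAR and DESeq2 and the builds mm10 and GRCm38 are named, without role or version, per the submitters' processing notes. For the counting program, its strand setting and its annotation, nothing is stated in the labels, headers or notes. The column names of 1 table give the group of its 7 libraries. The 9 columns of the other give no genotype, match no single titled sample and were not used. The titles name 7 Hes1 cKO and 9 control kidneys, and the series text gives these numbers the other way round.

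Counts were filtered by filterByExpr (minimum count 10), scaled by TMM and tested by edgeR's quasi-likelihood test (edgeR 4.0.16, R 4.3.3) without covariates, with Benjamini-Hochberg adjustment over 15615 genes and calls at an adjusted p under 0.05. Standard errors come from the F statistic. DESeq2 (1.42.0), limma-voom (limma 3.58.1), other scalings and filters, an Xist covariate and leaving out each library were alternatives. Between libraries of a group the chi-square statistic was 11.8 to 41 times its degrees of freedom, and each was counted as its own replicate. RPKM used exon lengths of GENCODE release M21 (GRCm38), where 28883 of the 28971 gene identifiers were found; the files give symbols. Coordinates of genes are from the same release, and promoter sequences from RefSeq (GRCm38.p6), which matched all 6 members. Starts differ between these sources, and motif distances depend on the start used. The GENCODE start of Irs2, chr8:11008458, lies downstream of its RefSeq start. The windows of Grb10, Grb14 and Sh2b2 lie within their GENCODE genes. No molecular identifiers are described, and the stated counting errors cover sampling of reads only.

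The members and lists were chosen with earlier results of these data known. Genes named are the 6 members, Hes1, Xist, Ddx3y and 3 receptors. In each of 5 pathway lists they are the called genes, the 3 with the smallest p and the most abundant per length. The 5 most like Irs1 are also named, and in each of 11 marker lists the called genes and the most abundant. Not every one of these is printed.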

Additional observations from a re-analysis of the deposited data

Results flagged for a closer look

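Among the 4 controls, 2 of 50 genes tested for a library far from the others were found, both markers of intercalated cells and neither a member; chance alone gives about 1 in 20. Atp6v1b1 was at 108 CPM in control 1 and at 146 to 147 CPM in the other controls, a gap of 0.959 of the whole range. Atp6v1g3 was at 39.9 CPM in control 1 and at 54.0 to 56.9 CPM in the others, a gap of 0.832 of the range. Irs1 was not low in control 1, at 19.3 CPM among controls of 16.2 to 19.7 CPM. Whether Irs1 follows the level of intercalated cell markers between libraries was not tested.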

How the results depend on the processing

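No paired analysis was possible because the codes and running numbers in the column names match no single titled sample. For the same reason the planned term for labelled sex was not run. The Xist level, which marks female tissue, was run as a covariate. Irs1 was called in 11 of 14 alternatives, with log2 fold changes from 0.71 to 0.82 and adjusted p-values from 6.8e-07 (DESeq2) to 0.113. When 1 library was left out, its log2 fold change ranged from 0.71 (without control 2) to 0.82 (without Hes1 cKO 3), and the number of members called was 0 or 1. No other member was called in any alternative. Irs2, Grb10 and Grb14 kept their signs in all 14. Gab1, at -0.0053, turned to 0.011 with scaling by total counts and ranged from -0.047 to 0.031 when 1 library was left out. Sh2b2, at 0.045, turned to -0.045 with the Xist covariate and ranged from -0.26 (without Hes1 cKO 1) to 0.20 (without Hes1 cKO 3). Over all genes, 53 were called, 130 by DESeq2, 102 without a low-count filter, and 25 (without Hes1 cKO 2) to 47 when 1 library was left out, 27 without Hes1 cKO 1; these have fewer samples, and the cause of the other moves was not tested. Of other named genes, Ddx3y (-0.012), Ywhaz (-0.030), Kdr (0.0073) and Col1a2 (-0.083) changed sign with the Xist covariate, Kdr (0.0060) with total counts and Col1a2 (-0.028) with limma-voom. Leaving out 1 library gave log2 ranges across 0 for Ddx3y (-0.17 to 1.51), Igf2r (-0.020 to 0.19), Ywhaz (-0.087 to 0.087), Kdr (-0.039 to 0.046), Col1a2 (-0.39 to 0.24), Lyz2 (-0.48 to 0.045), Fabp4 (-0.11 to 0.079) and Star (-3.22 to 2.12).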
